A study of Mus musculus with 8 samples.

Results

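The chromatin of 2 interferon regulatory factor genes, Irf1 and Irf8, was followed by ATAC-seq, which marks open chromatin by where the Tn5 transposase inserts adapters. Members were all peaks of the deposited table that touched a 60 kb window on chromosome 11 (53560000 to 53620000, with Irf1 near 53584000 to 53592000) or a 140 kb window on chromosome 8 (123210000 to 123350000, with Irf8 near 123260000 to 123281000), in build mm9. The windows held 11 and 20 peaks, together 31 of the 74207 in the table, and position alone chose them. Peaks are named here by the distance of their centre from these rounded gene starts. No mm9 annotation was used, so exons, introns and UTRs were not assigned.

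The cells were macrophages grown from the bone marrow of wild-type C57Bl/6 mice in CMG medium with serum. Each of 2 mice gave 1 library per group: cells left unstimulated, cells given 1 µM fenoterol for 15 min, cells given 100 ng/mL LPS for 1 h, and cells given fenoterol for 15 min and afterwards LPS for 1 h. Fenoterol activates the β2 adrenergic receptor, and LPS is the bacterial lipopolysaccharide sensed by Toll-like receptor 4. Cells with fenoterol alone were therefore harvested sooner after the agonist than cells with both, and the series asks how this receptor alters the early response to LPS. Macrophage markers were not checked, since the peaks carry no gene names.

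Irf1 and Irf8 encode transcription factors of the family that binds GAAA repeats in the promoters of interferon-inducible genes. Irf1 is low in resting macrophages and is switched on by interferon-γ and by Toll-like receptor signalling, the latter through NF-κB bound at its promoter. Irf8 is a lineage factor of monocytes, macrophages and dendritic cells that works with the ETS factor PU.1 and is already expressed in resting macrophages. Distal enhancers on both sides of Irf8 are known in myeloid cells. In the RefSeq gene order, Irf1 lies between Il5 and Slc22a5, and Irf8 between Cox4i1 and Foxf1.

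The promoter sequences are shown because both gene starts lay under the widest peak of their window, open in every library. They are the RefSeq stretches from 250 bases before to 50 after the start, build GRCm38.p6, plus strand, chr11:53769764-53770063 for Irf1 and chr8:120736108-120736407 for Irf8. These coordinates belong to another build than the peaks and cannot be set against them. Capitals mark matches to the NF-κB consensus.
Irf1 promoter: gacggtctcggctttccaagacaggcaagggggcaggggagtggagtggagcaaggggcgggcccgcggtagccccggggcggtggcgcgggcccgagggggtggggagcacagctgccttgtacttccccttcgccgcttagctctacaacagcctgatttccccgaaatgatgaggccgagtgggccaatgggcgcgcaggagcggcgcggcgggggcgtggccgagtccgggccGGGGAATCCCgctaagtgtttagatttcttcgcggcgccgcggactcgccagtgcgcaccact
Irf8 promoter: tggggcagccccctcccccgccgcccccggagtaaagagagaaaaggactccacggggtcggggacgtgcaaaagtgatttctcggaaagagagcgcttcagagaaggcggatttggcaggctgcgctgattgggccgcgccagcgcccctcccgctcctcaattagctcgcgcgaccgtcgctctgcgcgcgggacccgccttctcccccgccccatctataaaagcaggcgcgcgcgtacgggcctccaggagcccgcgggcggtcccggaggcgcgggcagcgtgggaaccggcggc
The Irf1 stretch held 1 NF-κB match, GGGGAATCCC, beginning 13 bases before the start, and the Irf8 stretch held none. Searched on both strands, 8.46% of the 32851 promoters of this table held an NF-κB match. Neither stretch matched the IRF element ISRE or a T-rich form of the NF-κB site. Nor did either match GAGGAA (the PU.1 core), TGANTCA (AP-1), TGACG (the CRE core) or TTGCNNAA (C/EBP). Most promoters lack each of these 6. Matches were held by 3.4% (ISRE), 5.6% (T-rich NF-κB), 28.3% (PU.1), 7.8% (AP-1), 20.8% (CRE) and 10.8% (C/EBP) of all promoters. The Irf1 and Irf8 stretches were GC-rich, with 69.3% for Irf1 and 70.0% for Irf8 against a median of 52.7% over all promoters. A match describes letters in this window, not a bound factor. A second RefSeq promoter of each gene held none of these motifs.

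Accessibility is given as RPKM, the reads in a peak divided by its length and by all reads in peaks of that library, after scaling between libraries. The shallowest library, unstimulated mouse 1, held 1425275 reads in peaks and the other 7 held 3164244 to 4040220, so its values are the least precise. A member held a median of 6 to 216 reads over the 8 libraries. The authors' table sets peaks without reads to 1 read, and 6 of the 248 values of members stood at 1 read. Of the 31 members, 28 passed the filter on low values, a mean of at least 9.62 RPKM over the 8 libraries, and were tested. Of these, 2 passed only through the libraries with LPS (Irf1 at 26.5 kb and Irf8 at 73.2 kb) and 3 only through those without (Irf1 at 16.0 kb, Irf8 at 14.8 and 50.5 kb), so that a difference in that direction was built into their being tested. Tests are by limma-trend on log2(RPKM + 4), with p-values adjusted over all 66786 tested peaks, and a peak is said to rise or fall only at an adjusted p below 0.05. The added 4 pulls log2 changes towards 0, above all where levels are low. Because each library is divided by its own reads in peaks, a gain or loss at every peak alike leaves these values as they are.

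Chromatin at both gene starts was open in unstimulated cells, and neither start passed the limma-trend threshold in any comparison. The peak over the Irf1 start (chromosome 11, 53583178 to 53584169, 991 bp) had 48.2 and 41.2 RPKM in unstimulated cells of mouse 1 and mouse 2, 37.4 and 38.1 with fenoterol, 40.8 and 42.4 with LPS, and 39.0 and 39.9 with fenoterol + LPS. The groups with and without LPS overlapped. Its log2 change with LPS against unstimulated cells was -0.09 (SE 0.14, 95% interval -0.38 to 0.19, adjusted p = 0.735), and 0.010 without the unstimulated library of mouse 1. The peak over the Irf8 start (chromosome 8, 123259734 to 123260723, 989 bp) had 25.7 and 26.2 RPKM unstimulated, 30.1 and 29.1 with fenoterol, 22.6 and 23.0 with LPS, and 20.2 and 23.4 with both. Here the 4 libraries with LPS were all lower than the 4 without. The change with LPS was -0.16 on the log2 scale (SE 0.17, interval -0.50 to 0.18, adjusted p = 0.606) and that of fenoterol + LPS against fenoterol -0.38 (SE 0.17, adjusted p = 0.137). Voom on reads recovered from the table, another test, gave an adjusted p of 0.0124 for the latter. For the average effect of LPS over all libraries, the Irf8 start had a log2 change of -0.27 (SE 0.12, adjusted p = 0.105), which voom called (-0.34, adjusted p = 0.0119).

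**Figure D1:**
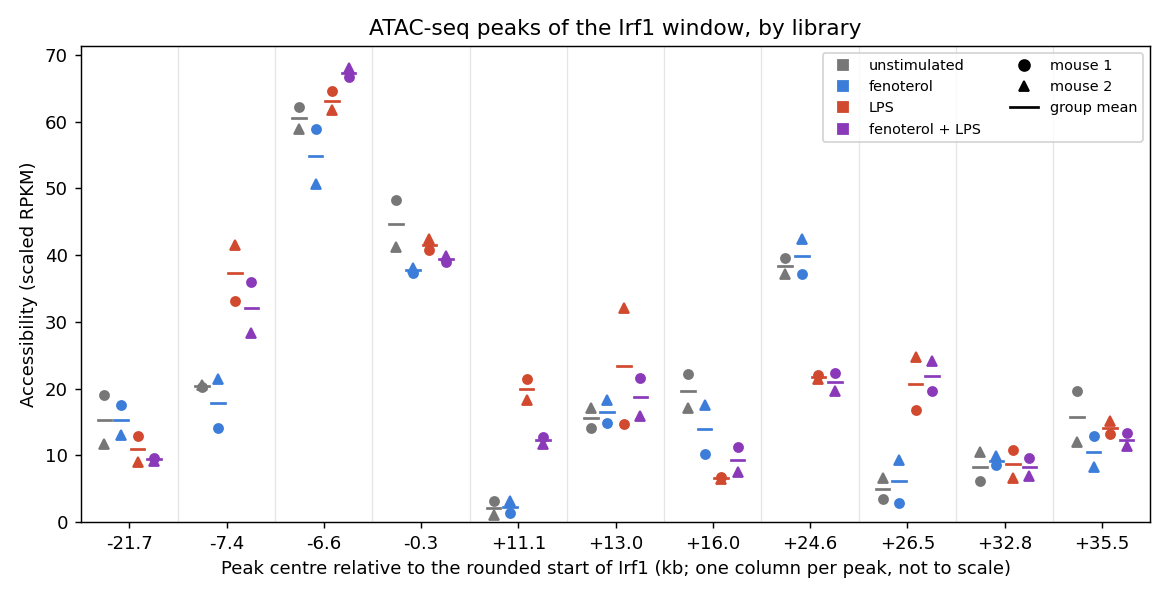
Accessibility (scaled RPKM) of the 11 peaks of the Irf1 window, 1 column per peak by distance from the gene start in kb, with a point per library, colour for group, shape for mouse and a bar for the mean of each group. The gene-start peak stays near 40 RPKM, the peak 24.6 kb downstream is lower in all 4 libraries with LPS, and those 11.1 and 26.5 kb downstream are higher.

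Around Irf1, some distal regions rose with LPS and others fell. Of the 9 peaks tested, 2 rose and 2 fell with LPS against unstimulated cells, where 10.1% of all tested peaks were called (6.53% higher and 3.54% lower). The median log2 change of the 9 was -0.09, against -0.03 over all tested peaks. The 4 called peaks were 1 of the 3 members upstream and 3 of the 7 downstream. Apart from the gene-start peak, the window held no member inside the gene. Without the LPS library of mouse 2 the count went from 4 to 0, while the count over the table went from 6726 to 2078.

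The peak with the smallest adjusted p fell. It lay 24.6 kb downstream of the Irf1 start (chromosome 11, 53608144 to 53609105) and had 39.6 and 37.3 RPKM in unstimulated cells, 37.2 and 42.5 with fenoterol, 22.1 and 21.4 with LPS, and 22.3 and 19.7 with both. All 4 libraries with LPS were below all 4 without, and the mice lay close together. The log2 change with LPS was -0.72 (SE 0.15, adjusted p = 0.00443; 0.0563 without the LPS library of mouse 2). Over the 8 libraries, the peaks most like it lay on chromosome 16 at 91825987 to 91826445, on chromosome 17 at 84518534 to 84519381 and on chromosome 5 at 148339318 to 148339793, with Pearson's r of 0.996, 0.993 and 0.991 of log2 values. With so few libraries and so many peaks, such values describe a shared shape only.

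Next to it, 26.5 kb downstream (53610405 to 53610624), a narrow peak rose. It was tested only through its level with LPS, since its mean without LPS was 5.56 RPKM. It had 3.41 and 6.58 RPKM unstimulated, 2.87 and 9.38 with fenoterol, 16.8 and 24.7 with LPS, and 19.6 and 24.2 with both. The libraries with LPS were all above those without. The log2 change with LPS was 1.47 (SE 0.35, adjusted p = 0.00937; 0.167 without the LPS library of mouse 2). Levels without LPS rested on 1 to 8 reads per library, the lowest of them in the unstimulated library of mouse 1. Summed over both mice, its read rate with LPS was 3.60 times that in unstimulated cells (95% interval 1.57 to 9.64, for counting error only).

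Upstream, 7.4 kb before the Irf1 start (53576350 to 53576793), a peak rose from 20.2 and 20.6 RPKM in unstimulated cells to 33.2 and 41.6 RPKM with LPS. It had 14.2 and 21.5 RPKM with fenoterol and 35.9 and 28.3 with both, again with no overlap between libraries with and without LPS. The log2 change with LPS was 0.75 (SE 0.19, adjusted p = 0.0133; 0.0806 without the mean trend and 0.197 with the LPS library of mouse 2 left out). Its neighbour 6.6 kb upstream (53576890 to 53577837) was the tallest of the window, at 62.3 and 58.9 RPKM unstimulated, 59.0 and 50.7 with fenoterol, 64.5 and 61.8 with LPS and 66.7 and 68.0 with both. Its LPS change of 0.06 on the log2 scale (SE 0.13, adjusted p = 0.843) did not pass, so adjoining peaks less than 1 kb apart gave different outcomes; the difference between them was not tested.

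The second fall was 16.0 kb downstream (53599785 to 53600121). This peak was tested only through its level without LPS, since its mean with LPS was 7.98 RPKM. Levels were 22.2 and 17.2 RPKM unstimulated, 10.3 and 17.6 with fenoterol, 6.74 and 6.45 with LPS and 11.3 and 7.47 with both. The unstimulated libraries stood above both LPS libraries, but fenoterol alone in mouse 1 lay below fenoterol + LPS in the same mouse. The log2 change with LPS was -1.15 (SE 0.31, adjusted p = 0.021). This no longer passed with the unstimulated library of mouse 1 left out (0.128), nor without the LPS library of mouse 1 (0.0984) or the LPS library of mouse 2 (0.124). This peak was not called for fenoterol + LPS against fenoterol (log2 change -0.41, adjusted p = 0.453), and the interaction was 0.75 (SE 0.44, adjusted p = 0.858).

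The steepest gain near Irf1 was at a peak that the filter on low values left out, and which is singled out after its values were seen. It lay 11.1 kb downstream (53594957 to 53595194) with 1 read in each unstimulated library, which may stand for none. Fenoterol libraries held 1 and 3 reads, LPS libraries 18 and 16, and fenoterol + LPS libraries 12 and 10. In RPKM these were 3.15 and 1.01, 1.32 and 3.25, 21.5 and 18.3, and 12.8 and 11.8. Taking the unstimulated reads at face value, the rate with LPS was 13.0 times as high, with an exact 95% interval of 3.33 to 112 for counting error only. In a fit of all 74207 peaks the log2 change with LPS was 1.99 (SE 0.37, adjusted p = 0.00144) and that of fenoterol + LPS against fenoterol 1.39 (SE 0.37, adjusted p = 0.0148).

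**Figure D2:**
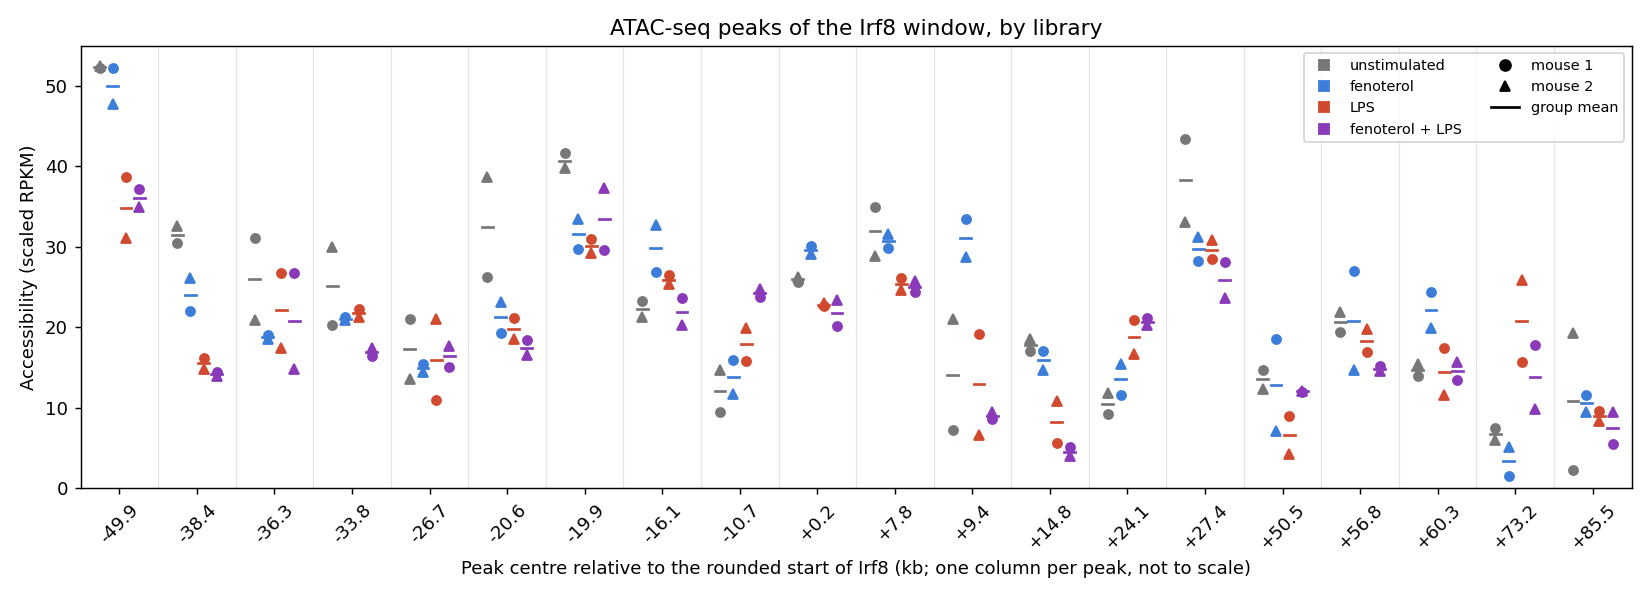
Accessibility (scaled RPKM) of the 20 peaks of the Irf8 window, 1 column per peak by distance from the gene start in kb, with a point per library, colour for group, shape for mouse and a bar for the mean of each group. The tall peak 49.9 kb upstream and the peak 38.4 kb upstream are lower in all 4 libraries with LPS, and the peak 73.2 kb downstream is higher in them.

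The Irf8 window held peaks that fell and a peak that rose. With LPS against unstimulated cells 1 of 19 tested peaks rose and 2 fell, beside 10.1% called over the table (6.53% higher and 3.54% lower). So few calls do not set the window apart from the table. Counted by direction, 11 of the 19 (57.9%) were lower in both mice and 4 higher in both, against 33.7% and 29.7% of all tested peaks. The median log2 change was -0.16, against -0.03 over all tested peaks. Without the LPS library of mouse 2 the count of calls went from 3 to 0; it was 1 without the mean trend and 6 by voom, which called 12.0% of the table and added the peaks at -20.6, 14.8 and 24.1 kb. Averaged over the bases of its peaks, accessibility of the window was 26.3 ± 0.788 RPKM in unstimulated cells (SD, n = 2), 24.9 ± 0.269 with fenoterol, 21.1 ± 0.984 with LPS and 20.5 ± 0.0102 with both. At Irf1 the same average was 31.9 ± 2.21, 29.1 ± 0.443, 30.7 ± 0.531 and 30.0 ± 0.948 RPKM in this order, with overlap between libraries with and without LPS. These averages carry no test, and how often other windows would set libraries with and without LPS apart was not counted. Wide peaks weigh most in them, at Irf8 among others the called falls at -49.9 kb (871 bp) and -38.4 kb (857 bp).

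**Figure D3:**
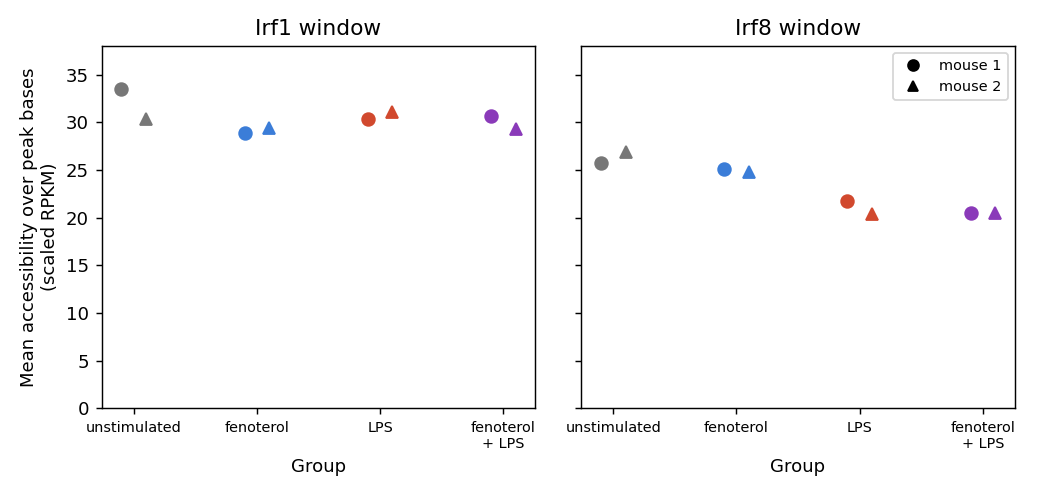
Mean accessibility over peak bases (scaled RPKM) in the Irf1 and Irf8 windows, by group, with a point per library and shape for mouse. At Irf8 the 4 libraries with LPS lie between 20.4 and 21.8 RPKM, below the 24.8 to 26.8 of those without. At Irf1 the libraries overlap. No test was made, and wide peaks weigh most in these averages.

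The tallest Irf8 peak was far upstream, 49.9 kb before the start (chromosome 8, 123209637 to 123210508). It had 52.3 and 52.4 RPKM in unstimulated cells, 52.2 and 47.8 with fenoterol, 38.7 and 31.1 with LPS and 37.1 and 34.9 with both. No library with LPS reached the level of one without. It fell by 0.54 on the log2 scale with LPS (SE 0.14, adjusted p = 0.0161), a call lost on leaving out the mean trend (0.104) or the LPS library of mouse 2 (0.257). The change was under the 1.5-fold tried as an added threshold.

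The peak 38.4 kb upstream (123221155 to 123222012) fell further, by 0.86 on the log2 scale (SE 0.19, adjusted p = 0.006; 0.0699 without the LPS library of mouse 2). Levels were 30.5 and 32.5 RPKM unstimulated, 22.0 and 26.1 with fenoterol, 16.2 and 14.9 with LPS and 14.4 and 14.0 with both. Fenoterol libraries lay between the unstimulated and the LPS libraries, but the change with fenoterol alone did not pass (log2 change -0.34, SE 0.19, adjusted p = 0.727). Over the 8 libraries the peaks most like it lay on chromosome 13 at 24908220 to 24909667 and on chromosome 5 at 91189995 to 91190194 and at 75353275 to 75353948, with Pearson's r of 0.995, 0.993 and 0.991.

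A single Irf8 peak rose, 73.2 kb downstream (123333101 to 123333300). It was tested only through its level with LPS, since its mean without LPS was 5.07 RPKM, and it came under the filter with the lowest 25% left out and without the LPS library of mouse 2. It had 7.50 and 6.04 RPKM unstimulated, 1.58 and 5.16 with fenoterol, 15.6 and 25.9 with LPS and 17.8 and 9.81 with both. The libraries with LPS were all above those without. Its levels without LPS rested on 1 to 5 reads. The log2 change with LPS was 1.17 (SE 0.37, adjusted p = 0.0471), close to the threshold, and 9 of the 19 alternatives that tested it put it above, with an adjusted p of up to 0.0955. Leaving out either unstimulated library, the LPS library of mouse 1 or either fenoterol + LPS library was among these (0.0804, 0.0762, 0.0933, 0.0724 and 0.0607).

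Peaks near both genes also rose and fell between cells with fenoterol alone and cells with fenoterol + LPS. Cells with both were harvested later after fenoterol than cells with fenoterol alone. LPS and this time cannot be told apart in that comparison, nor in the interaction built on it. For fenoterol + LPS against fenoterol, a comparison that shares no library with that of LPS alone, 2 Irf1 peaks rose and 1 fell, and 1 Irf8 peak rose and 4 fell, where 13.7% of all tested peaks were called (9.43% higher and 4.32% lower). Both comparisons used the same 2 mice, and the spread of each peak came from all 8 libraries in both. At Irf1, 3 of the 4 LPS calls were made again in the same direction, at -7.4 kb (log2 change 0.74, SE 0.19, adjusted p = 0.011), 24.6 kb (-0.81, SE 0.15, adjusted p = 0.00119) and 26.5 kb (1.43, SE 0.35, adjusted p = 0.00797). The first was lost without the fenoterol library of mouse 1 (0.197), the mean trend (0.0672) or the fenoterol + LPS library of mouse 1 (0.168), and the last without the fenoterol library of mouse 1 (0.152) or the fenoterol + LPS library of mouse 2 (0.115), while that at 24.6 kb was kept under all 21 alternatives. At Irf8 all 3 were, at -49.9 kb (-0.43, SE 0.14, adjusted p = 0.0438), -38.4 kb (-0.62, SE 0.19, adjusted p = 0.0357) and 73.2 kb (1.28, SE 0.37, adjusted p = 0.0235). At -49.9 kb the call was lost without any 1 of the fenoterol libraries (0.263 for mouse 1 and 0.0874 for mouse 2), the LPS libraries (0.0579 and 0.058) or the fenoterol + LPS libraries (0.152 and 0.259), without the mean trend (0.158) and with a 1.5-fold threshold added. At -38.4 kb it was lost without either fenoterol library (0.0859 and 0.211) or either fenoterol + LPS library (0.137 and 0.167). At 73.2 kb it was lost without the fenoterol library (0.228) or the fenoterol + LPS library (0.3) of mouse 1, and it was not tested with the lowest 25% left out, with the libraries of the groups compared only, or without the LPS library of mouse 2. The peaks at 26.5 kb of Irf1 and 73.2 kb of Irf8 were tested only through their level with LPS. Their rises in both comparisons were thus favoured in advance. Over the table, 61.5% of the 6726 LPS calls were made again in the same direction, or 45.1% of the 9182 calls of this comparison. The sign was shared by 7 of 9 tested Irf1 peaks (77.8%) and 14 of 19 Irf8 peaks (73.7%), close to the 71.2% of all tested peaks.

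Inside the Irf8 gene 2 peaks were called in this comparison but not with LPS alone. The peak 14.8 kb past the start (123274592 to 123274941) had 17.1 and 18.6 RPKM unstimulated, 17.1 and 14.7 with fenoterol, 5.67 and 10.9 with LPS and 5.07 and 3.99 with both. All libraries with LPS were lower than those without. The peak was tested only through its level without LPS, since its mean with LPS was 6.4 RPKM. It fell by 1.22 on the log2 scale with fenoterol + LPS against fenoterol (SE 0.32, adjusted p = 0.013; 0.128 without the fenoterol library of mouse 1, and 0.0545 and 0.0992 with the fenoterol + LPS library of mouse 1 or mouse 2 left out). Its log2 change with LPS alone was -0.86 (SE 0.32), which voom called (adjusted p = 0.0355) and limma-trend did not (0.0924).

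The peak 9.4 kb past the start (123269294 to 123269500) varied between mice. It had 7.25 and 21.0 RPKM unstimulated, 33.5 and 28.7 with fenoterol, 19.2 and 6.58 with LPS and 8.59 and 9.47 with both. The mice went opposite ways with LPS alone, whereas both fenoterol libraries were above all others. It fell by 1.43 with fenoterol + LPS against fenoterol (SE 0.35, adjusted p = 0.00906). That call was lost without the fenoterol library of mouse 1 (0.114), the fenoterol + LPS library of mouse 1 (0.0675) or of mouse 2 (0.0524), and without the mean trend (0.0668). Fenoterol alone against unstimulated cells gave a log2 change of 1.06 (SE 0.35, adjusted p = 0.525), and the interaction was -1.33 (SE 0.50, unadjusted p = 0.0147, adjusted p = 0.714). The unstimulated library of mouse 1 held 2 reads here.

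**Figure D4:**
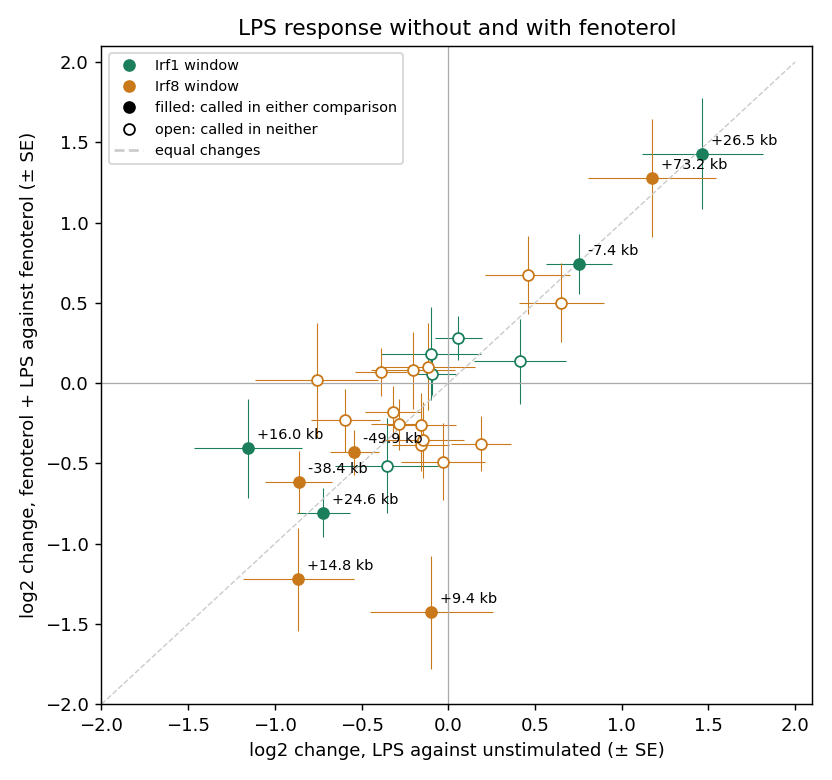
Log2 change of the 28 tested peaks with LPS against unstimulated (x axis) and with fenoterol + LPS against fenoterol (y axis), with SE bars, Irf1 in green and Irf8 in orange; filled points were called in either comparison and are labelled by distance from the gene start. Peaks called in both lie near the line of equal changes, and the Irf8 peak at 9.4 kb lies far below it.

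The number of calls changed with single libraries. Without the fenoterol library of mouse 1 the count went from 3 to 1 at Irf1 and from 5 to 0 at Irf8; with the fenoterol + LPS library of mouse 1 left out it was 2 and 0, and with that of mouse 2 left out 2 and 1. Calls over the table went from 9182 to 3847, 4050 and 3888 in these 3 fits. At Irf8 it was 3 without the fenoterol library of mouse 2 (6758 over the table) and 3 without the LPS library of mouse 2 (7835). Voom gave 4 and 8, where it called 20.2% of the table, adding the Irf1 peak at -6.6 kb (adjusted p = 0.0494) and the Irf8 peaks at -10.7 kb, the gene start and 24.1 kb.

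The average effect of LPS came from a fit that adds the effects of LPS and fenoterol over all 8 libraries. At Irf1, 2 rose and 2 fell, the same 4 as with LPS alone, and at Irf8, 3 rose and 4 fell, where 22.9% of all tested peaks were called (13.0% higher and 9.91% lower). This comparison contains both LPS comparisons, of which that in fenoterol-treated cells also differs in time since fenoterol. It adds no independent evidence. At Irf8 it added falls at -20.6 kb (log2 change -0.41, SE 0.14, adjusted p = 0.0435) and 14.8 kb (-1.04, SE 0.23, adjusted p = 0.00189) and rises at -10.7 kb (0.57, SE 0.17, adjusted p = 0.0206) and 24.1 kb (0.58, SE 0.17, adjusted p = 0.0187). Of the called peaks, Irf1 at 16.0 and 26.5 kb and Irf8 at 14.8 and 73.2 kb passed the filter through 1 side of this split only. The direction of their calls was thus favoured in advance. Without overlap between the 4 libraries with LPS and the 4 without stood 4 of the 11 Irf1 peaks (3 higher, 1 lower) and 7 of the 20 Irf8 peaks (2 higher, 5 lower), beside 23.6% of all peaks (13.1% higher and 10.5% lower). The rise at -10.7 kb (123249134 to 123249528) went from 9.47 and 14.6 RPKM unstimulated and 15.9 and 11.7 with fenoterol to 15.8 and 19.9 with LPS and 23.7 and 24.8 with both. The rise at 24.1 kb (123283767 to 123284497), just past the gene, went from 9.20 and 11.8 and 11.6 and 15.5 RPKM to 20.9 and 16.7 and 21.1 and 20.2 in the same order. At -20.6 kb (123239170 to 123239624) the levels were 26.3 and 38.6, 19.3 and 23.2, 21.2 and 18.5, and 18.4 and 16.6 RPKM, with the unstimulated libraries above all others. Its call was lost in 9 of 20 alternatives, among them those without unstimulated mouse 2 (adjusted p = 0.187), the fenoterol library of mouse 2 (0.0928), the LPS library of mouse 1 (0.09) or of mouse 2 (0.146), and the fenoterol + LPS library of mouse 2 (0.0793). That at -10.7 kb was lost without the fenoterol library of mouse 2 (0.0756), the LPS library of mouse 2 (0.0686) or either fenoterol + LPS library (0.0649 and 0.0772). That at 24.1 kb was lost without the fenoterol library of mouse 1 (0.054), the LPS library of mouse 1 (0.0832) or the fenoterol + LPS library of mouse 1 (0.0536). At Irf1 the call at 16.0 kb ended without unstimulated mouse 1 (0.0636), the fenoterol library of mouse 2 (0.0624) or the LPS library of mouse 1 (0.0556) or mouse 2 (0.06). The Irf8 count went from 7 to 4 without the LPS library of mouse 2, when that over the table went from 15279 to 11805. Voom called 4 Irf1 and 9 Irf8 peaks and 27.6% of the table, adding the Irf8 start and the peak at 9.4 kb.

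Fenoterol alone for 15 min gave no call at either gene. By limma-trend 0 of 9 Irf1 and 0 of 19 Irf8 peaks passed, where 0.00749% of all tested peaks did (0.00599% higher and 0.0015% lower). At an unadjusted p below 0.05 there were 0 and 4, against 7.43% of the table, and voom called 0 members and 0.0674% of the table. Log2 changes ran from -0.43 to 0.11 at Irf1 and from -0.59 to 1.06 at Irf8, the last being the peak at 9.4 kb. Without the unstimulated library of mouse 2 that peak was called (log2 change 1.63, adjusted p = 0.0135), when the count over the table went from 5 to 3595.

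Fenoterol given before LPS was set against LPS alone to read its effect in stimulated cells. By limma-trend 0 peaks were called at either gene and 0% of the table, with 0 Irf1 and 0 Irf8 peaks at an unadjusted p below 0.05, against 6.66% of the table. Voom called 0 of these members and 0.609% of the table. The 95% intervals of the difference lay within 2-fold either way at 24 of 28 peaks and ran from -1.25 to 1.37 over all of them. At the gene starts the differences were -0.07 (interval -0.35 to 0.21) for Irf1 and -0.06 (-0.40 to 0.29) for Irf8. The smallest unadjusted p at Irf1 was at -7.4 kb, with a log2 difference of -0.20 (interval -0.59 to 0.20, adjusted p = 0.94). At Irf8 it was at 50.5 kb (123310375 to 123310628), with 14.7 and 12.3 RPKM unstimulated, 18.6 and 7.11 with fenoterol, 8.95 and 4.28 with LPS and 12.0 and 12.1 with both. Both mice were higher with fenoterol + LPS there (log2 difference 0.63, interval -0.11 to 1.37, adjusted p = 0.818), on 4 to 15 reads per library. At the untested Irf1 peak at 11.1 kb, reads over both mice were 22 with fenoterol + LPS and 34 with LPS, a rate ratio of 0.622 (exact 95% interval 0.346 to 1.09, counting error only). The interaction was called at 0 members, with 0 Irf1 and 3 Irf8 peaks at an unadjusted p below 0.05, against 6.33% of the table, and 0 calls by voom. Those 3 were at -19.9, -16.1 and 9.4 kb. A p that misses the threshold does not show that the groups were alike.

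**Figure D5:**
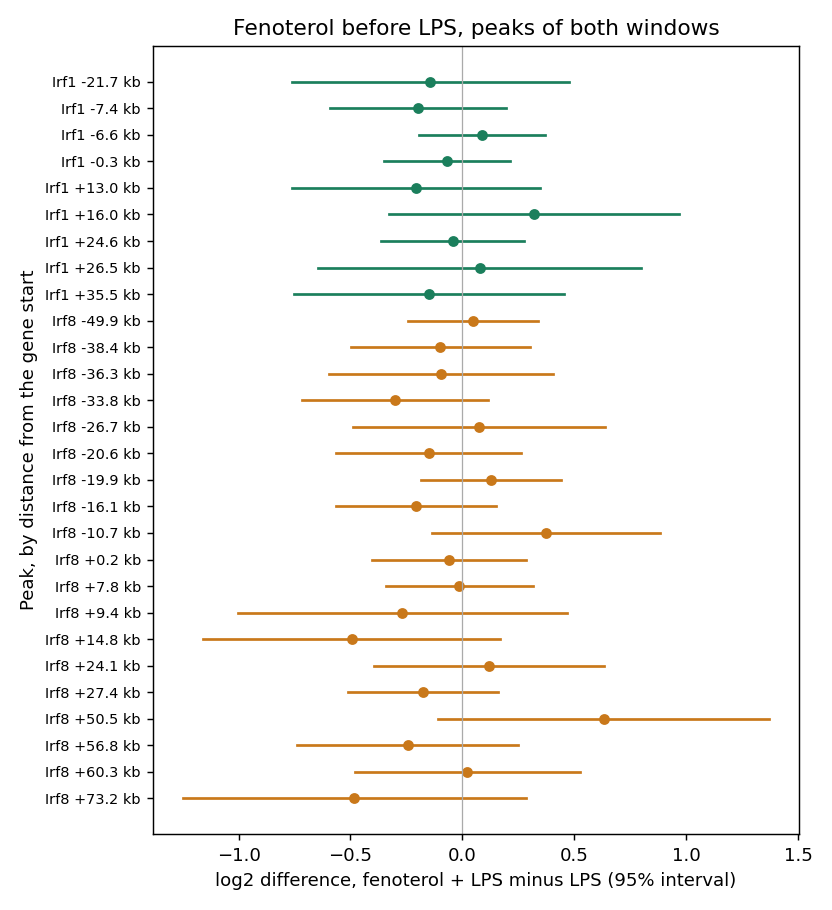
Log2 difference between fenoterol + LPS and LPS (points) with 95% intervals (lines) for the 28 tested peaks, Irf1 in green and Irf8 in orange, in order of position. Every interval includes 0, and they are widest at the Irf8 peaks at 50.5 and 73.2 kb.

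The remaining members passed in no comparison. At Irf1 these were the peaks at -21.7, 13.0 and 35.5 kb, with means over the 8 libraries of 12.8, 18.6 and 13.2 RPKM, and the untested peak at 32.8 kb with 8.65 RPKM. At Irf8, tested peaks without a call at -36.3, -33.8, -26.7, -19.9, -16.1, 7.8, 27.4, 56.8 and 60.3 kb had means of 16.2 to 34.0 RPKM. The untested one at 85.5 kb had 9.45 RPKM, with 2.30 RPKM on 1 read in the unstimulated cells of mouse 1 and 19.3 RPKM in those of mouse 2. No member reached 1 kb in width, where 3205 of all peaks did, and median widths were 365 bp at Irf1 and 381 bp at Irf8 against 404 bp over the table. Just outside the Irf1 window, at 53632274, a peak had means of 6.67 RPKM unstimulated and 19.4 RPKM with LPS, where the last peak inside, at 53619282, had 15.8 and 14.2. At the lower border, the peak outside at 53551074 had 16.8 and 10.8 RPKM and the first inside, at 53562148, 15.3 and 11.0. For Irf8, the peak outside the lower border at 123209192 had 42.9 and 23.6 RPKM, beside 52.3 and 34.9 at the first peak inside, at 123209637. The last peak inside, at 123345328, had 10.8 and 8.98 RPKM and the next outside, at 123352229, 10.1 and 9.70.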

How the data were processed

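ATAC-seq libraries of 8 samples (2 mice, 4 groups) were used. The authors deposited 1 RPKM value per peak and library for a shared peak set; the submitters' processing notes list cutadapt, Bowtie2, MACS2 and HOMER, and build mm9. Not given in the sources used here: versions, duplicate removal, any shift for the Tn5 cut site, and whether libraries were pooled for peak calling. Each can change levels. Multiplied by peak length, 100% of values came within 0.01 read of whole reads, so reads were recovered.

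RPKM were divided by median-ratio size factors (0.9401 to 1.037). The lowest 10% of peaks by mean, below 9.62 RPKM, were left out (7421), and log2(value + 4) of 66786 peaks was fitted (limma 3.58.1, R 4.3.3; empirical Bayes with a mean trend, 4 group means over 8 libraries, 4 residual and 16.4 prior degrees of freedom, Benjamini-Hochberg adjustment, threshold 0.05). The script was tested on simulated data. Same-numbered libraries come from the same mouse per the labels; their deviations correlated at 0.0223 to 0.0713. The 2 libraries of a group had a chi-square of 0.89 to 1.21 per degree of freedom, where read counting alone gives about 1. Averaged over peaks, the 2 mice of a group thus differed little beyond counting error. With 1 pair per group none was counted as 1 sample. P-values rest on 2 mice per group and on a spread shared over peaks. Since that spread held little beyond counting error, it may not cover the variation among mice at large.

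The members, lists and alternatives were chosen with earlier results of these data known. Values in every library are given for gene-start peaks, called members (at most the 8 with the smallest adjusted p per gene), the tallest member, and the member with the smallest p for fenoterol + LPS against LPS; the 3 peaks most like a gene's leading LPS peak were taken by Pearson's r. Other interferon regulatory factor loci and cell type markers were not analysed here, for want of an mm9 annotation. RefSeq promoters (GRCm38.p6) were matched by symbol, 2 of 2 genes; 1 of the motifs listed for them is not reported here.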

Additional observations from a re-analysis of the deposited data

Results flagged for a closer look

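Every group has 2 samples, so no test for outlying samples was made. At 2 peaks the effect of 1 treatment went one way in both mice without the other treatment and the opposite way in both mice with it. How many of all tested peaks did the same was not counted. These 2 are therefore described, and not shown to differ from the table. Harvest of cells with both treatments also came later after fenoterol than harvest of cells with fenoterol alone. This time and the treatments cannot be told apart in such a reversal.

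At the Irf1 peak 6.6 kb upstream, fenoterol went with lower values in both mice without LPS (62.3 to 59.0 and 58.9 to 50.7 RPKM) and higher values in both with LPS (64.5 to 66.7 and 61.8 to 68.0 RPKM). The interaction was 0.22 on the log2 scale (SE 0.19, limma-trend adjusted p = 0.928). At the Irf8 peak 16.1 kb upstream, fenoterol went with higher values without LPS (23.3 to 26.9 and 21.2 to 32.7 RPKM) and lower ones with LPS (26.5 to 23.6 and 25.3 to 20.3 RPKM). Seen the other way, LPS went with higher values without fenoterol and lower ones with it. The interaction was -0.57 (SE 0.24, unadjusted p = 0.0293, adjusted p = 0.758). Neither passed the threshold.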

How the results depend on the processing

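Over 21 alternatives (20 for the interaction and the average effect), 231 of 248 counts of called members equalled the reported one or stayed within 1.5 times it. Many of these were counts reported as 0 that stayed at 0, which says little about the calls made. The Irf8 count for fenoterol + LPS against fenoterol moved further than this in 9 of 21 alternatives. With LPS against unstimulated cells, leaving out 1 library gave 0 to 5 calls at Irf1 (4 as reported) and 0 to 3 at Irf8 (3 as reported), and the Irf8 count was 1 without the mean trend and 6 by voom. For fenoterol + LPS against fenoterol, leaving out 1 library gave 1 to 4 at Irf1 (3) and 0 to 6 at Irf8 (5); the Irf8 count was 3 with the lowest 25% left out, 3 without the mean trend, 8 by voom, and 8 by voom with the mouse as a replicate block. For the average effect of LPS at Irf8 (7), it was 3 with an added 1.5-fold threshold and 4 to 8 on leaving out 1 library. For fenoterol alone at Irf8 (0) the latter gave 0 to 1. With the mouse as a block in limma-trend these counts were 4 and 3 for LPS, 3 and 5 for fenoterol + LPS against fenoterol, and 7 for the average effect at Irf8; the block changed no other count of called members. Over the table it moved calls for LPS from 6726 to 7513 and for fenoterol + LPS against fenoterol from 9182 to 9877. Calls for fenoterol went from 5 to 8 and those for the interaction from 0 to 1. Over the whole table, calls for LPS ran from 2078 to 12736 (6726), for fenoterol from 0 to 3595 (5), for fenoterol + LPS against fenoterol from 3847 to 14086 (9182), for fenoterol + LPS against LPS from 0 to 506 (0), for the interaction from 0 to 275 (0), and for the average effect from 9145 to 19205 (15279). The LPS change of the Irf1 gene-start peak, -0.09, ranged from -0.20 to 0.010 on leaving out 1 library, the latter without the unstimulated library of mouse 1. The cause of these shifts was not tested. At 4 of 28 peaks the 95% interval for fenoterol + LPS against LPS reached beyond 2-fold, so the data do not bound the difference to 2-fold there. Calls at -49.9 kb of Irf8 did not pass with a 1.5-fold threshold added.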
